A study of Mus musculus with 2 samples.

Results

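A set of 9 genes that encode cytokine receptors of type 2 innate lymphoid cells (ILC2s) were described through their H3K4me3 peaks: Il2ra, Il2rb, Il7r, Il4ra, Il17rb, Crlf2, Il9r, Il17ra and Il10ra. They were chosen by symbol, and every listed peak was taken that overlapped the gene body or lay within 1000 bp of an annotated transcript start. The 9 genes, of 21951 protein-coding genes in the GENCODE annotation of GRCm38, held 12 of the 42126 peaks listed for adult offspring of control mothers and 9 of the 51610 peaks listed for those of asthmatic mothers.

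ILC2s are tissue-resident lymphocytes that release type 2 cytokines when damaged or stimulated epithelium releases alarmins. The alarmins IL-25 and TSLP are received by pairs of chains that include IL-17RB with IL-17RA and CRLF2 with the IL-7 receptor chain, whereas IL-33 is received by ST2, encoded by Il1rl1. IL-2, IL-7 and IL-9 pass survival and growth signals through receptors that share the common gamma chain, and H3K4me3, trimethylation of lysine 4 on histone H3, is a mark of active transcript starts that is found most often where CpG dinucleotides are dense.

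CATCH-seq, a carrier-assisted form of native ChIP-seq for few cells, was used to profile H3K4me3 in about 3000 lung ILC2s per library, sorted from adult C57BL/6J wild-type offspring. The methods of the study give the adult sort as CD45+ Lin- ST2+ cells, and a reporting form adds CD90 (Thy1) to the gate for adult lungs. The age label was 8 weeks, and the protocol gave 7 to 9 weeks. The mothers of one group, whose library is called the control library here, were control mothers given alum without ovalbumin by injection and PBS intranasally. Those of the other, whose library is called the OVA library, were asthmatic mothers sensitized by intraperitoneal injection of 100 µg ovalbumin (OVA) in alum on days -21 and -7, then given 500 µg OVA intranasally every few days from gestation day 4 to 17. Sires were untreated, and the offspring themselves were described with no treatment for this assay. Per the study, these data came from 1 experiment with 1 pregnant dam per group. There was 1 library per group, so values have no replicate, the groups could not be tested against each other, and maternal treatment cannot be told apart from a difference between dams, litters or libraries.

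For each peak the deposited lists gave a position, a fold of signal over the caller's local background at the peak's highest point, its summit, and a −log10 p and −log10 q against that background. These values were compared within a list. The percentile of a peak is its rank by −log10 q, counted from the lowest, as a percent of the peaks in its own list. Ties were given their mean rank. The number of DNA fragments at each summit was solved from the fold and −log10 p under a Poisson model without a control, which returned the listed −log10 p within 0.001 for 99.99% of peaks in each list. Counts are given with exact Poisson 95% intervals, which cover counting error only. The lists held no total read count, so the depth of each library is given here only through these fragments. According to a reporting form of the study, peak calling and quality checks were not done on the ChIP-seq data, although a peak list was deposited for each library, so how the folds, −log10 p and −log10 q were made is not known. The median summit at a protein-coding start held 24 fragments in the control library and 16 in the OVA library.

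As a check of the cell type, 7 of 10 ILC2 markers had a peak within 1000 bp of a transcript start, called a start peak here, in the control library and 5 of 10 in the OVA library. Over all protein-coding genes the shares were 51.0% and 42.0%, so the ILC2 count of the OVA library was near that of any gene. Gata3 and Il5 had one only in the former, and Il13, Klrg1 and Icos had none in either. Markers of B cells, macrophages, neutrophils and fibroblasts had no start peak in either list, out of 5, 5, 4 and 4 genes. In the control library, 1 of 6 T cell markers (Lck), 2 of 5 epithelial markers (Epcam and Cdh1) and 1 of 4 endothelial markers (Kdr) had a start peak, against 0 in the OVA library. Epcam stood at percentile 85.6, above every ILC2 marker of that library, the highest of which was Areg at 79.1. Cdh1, Lck and Kdr stood at 60.7, 18.7 and 4.23. The part of cells other than ILC2s in the values below was not tested.

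All 9 receptor genes had a start peak in the control library, and 7 of 9 had one in the OVA library. Among all protein-coding genes, 51.0% and 42.0% had one, and 41.3% had one in both lists. Il2rb and Il7r had a start peak only in the control library, as did 9.73% of protein-coding genes, and no receptor gene had one only in the OVA library, as did 0.711% of protein-coding genes. When distance was taken from the 5′ end of the gene alone, 8 of 9 and 6 of 9 receptor genes had a peak within 1000 bp, against 47.1% and 38.4% of protein-coding genes. Il2ra thus also had a peak at its own start only in the control library, because its remaining peak lay deep in the gene body. Il17rb counts in the OVA library both ways, although its peak there lay wholly outside the gene, 132 bp upstream of the start.

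**Figure D1:**
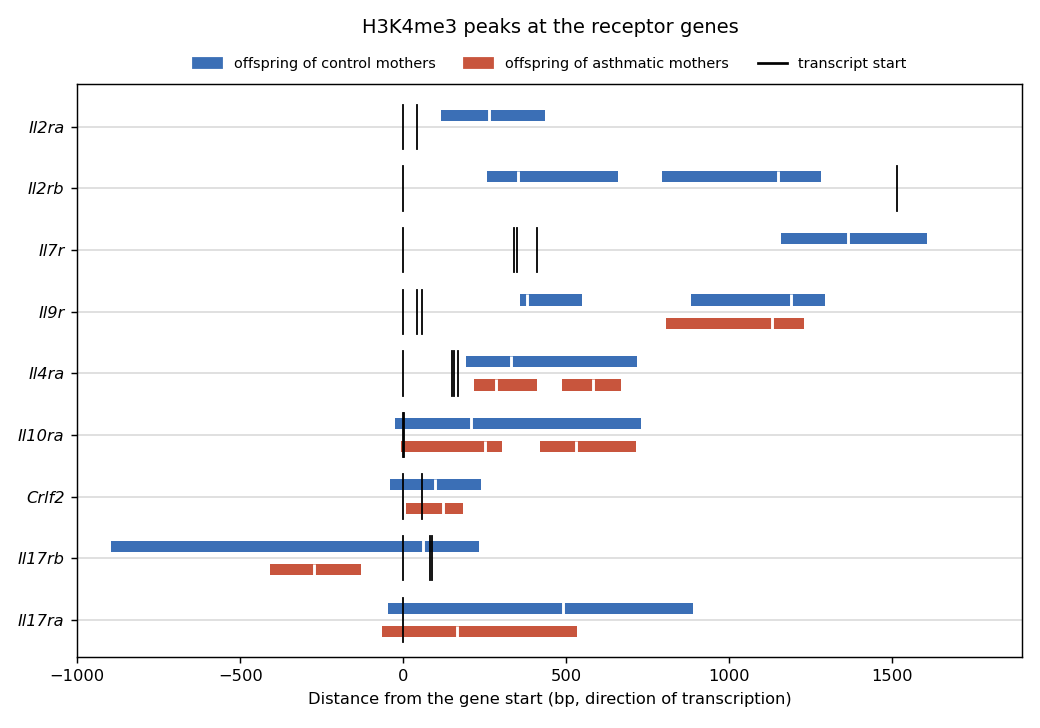
Positions of the H3K4me3 peaks at the 9 receptor genes, as distance in bp from the 5′ end of each gene along the direction of transcription. Bars are listed peaks of the 1 library of each group, white ticks are summits and black lines are annotated transcript starts, and the Il2ra peaks 35613 and 35607 bp downstream lie outside the plotted range. Il2ra, Il2rb and Il7r have bars only for the control library, and the bars of Il9r begin downstream of its start.

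The genes differed in CpG content around their starts. In a window of 500 bp to either side of the gene start, the ratio of observed to expected CpG was 0.141 for Il7r, 0.171 for Il2ra, 0.209 for Il9r and 0.258 for Il2rb. It was 0.484 for Il10ra, 0.610 for Il17rb, 0.664 for Il4ra, 0.856 for Crlf2 and 0.919 for Il17ra, and the median over all protein-coding genes was 0.552. The sequence around 1 summit of the control library is shown for 5 of the genes. Each line is the reference sequence of GRCm38 around 1 summit, on the strand of the gene, with CpG in capitals, and stretches outside annotated untranslated regions were chosen.
Il7r (chr15:9528735-9528884, minus strand): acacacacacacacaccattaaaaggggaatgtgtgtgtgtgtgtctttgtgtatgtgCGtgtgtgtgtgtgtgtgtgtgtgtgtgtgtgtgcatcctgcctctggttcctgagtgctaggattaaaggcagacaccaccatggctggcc
Il2rb (chr15:78494046-78494195, minus strand): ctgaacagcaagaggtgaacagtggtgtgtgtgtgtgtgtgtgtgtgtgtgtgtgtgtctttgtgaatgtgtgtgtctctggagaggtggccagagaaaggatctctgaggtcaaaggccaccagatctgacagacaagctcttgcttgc
Il10ra (chr9:45268866-45269015, minus strand): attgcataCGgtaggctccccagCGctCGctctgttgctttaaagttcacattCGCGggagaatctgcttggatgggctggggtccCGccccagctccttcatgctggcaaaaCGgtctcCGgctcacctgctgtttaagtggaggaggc
Il4ra (chr7:125552377-125552526, plus strand): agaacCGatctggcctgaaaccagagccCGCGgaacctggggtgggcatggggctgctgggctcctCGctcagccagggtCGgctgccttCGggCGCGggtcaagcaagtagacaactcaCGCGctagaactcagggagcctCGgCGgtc
Il17ra (chr6:120463663-120463812, plus strand): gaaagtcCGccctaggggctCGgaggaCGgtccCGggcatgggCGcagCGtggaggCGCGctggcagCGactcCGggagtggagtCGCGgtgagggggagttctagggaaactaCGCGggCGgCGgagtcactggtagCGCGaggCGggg
These 150-base stretches held 1 CpG at Il7r and 0 at Il2rb, against 8 at Il10ra, 12 at Il4ra and 19 at Il17ra. The summits at Il7r and Il2rb lay 1366 and 1150 bp downstream of the gene start, outside the window of the ratio. Those at Il10ra, Il4ra and Il17ra lay within it, at 208, 332 and 491 bp. The stretches thus differ in distance from the start as well as in CpG. All 5 of these peaks reached into intron 1. The Il7r and Il2rb stretches each hold a run of alternating g and t, although the 75 bases at these summits occurred once in the genome.

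Promoter sequences, running from 250 bases before to 50 after the RefSeq start on GRCm38.p6, were found for 6 of the 9 genes. Il2rb, Il17ra and Il10ra had no entry. Both strands were searched for 4 motifs: TTCNNNGAA, bound by STAT factors, AGATAA, bound by GATA factors, AGAACA, a half-site of the glucocorticoid receptor, and CCGGAAGT, bound by ETS factors. TTCNNNGAA was present in Il7r alone of the 6, starting at base -142 from the start, and in 8.30% of 32851 promoters. AGATAA was present in Il9r alone, at bases -223 and, on the other strand, -30, and in 11.2% of promoters. AGAACA was present in Il2ra alone, starting at bases -16 and 36, and in 19.0% of promoters. CCGGAAGT was present in 0 of the 6 and in 3.89% of promoters. A match is a stretch of letters and not evidence of binding. The 250 bases before the start are shown for the promoters with a match, on the strand of the gene, with the match in capitals.
Il7r promoter (chr15:9529877-9530126, minus strand): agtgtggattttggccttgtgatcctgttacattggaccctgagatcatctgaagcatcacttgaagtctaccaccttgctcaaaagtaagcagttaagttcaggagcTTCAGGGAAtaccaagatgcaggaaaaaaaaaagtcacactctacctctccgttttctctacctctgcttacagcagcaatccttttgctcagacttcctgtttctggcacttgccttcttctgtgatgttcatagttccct
Il9r promoter (chr11:32200280-32200529, minus strand): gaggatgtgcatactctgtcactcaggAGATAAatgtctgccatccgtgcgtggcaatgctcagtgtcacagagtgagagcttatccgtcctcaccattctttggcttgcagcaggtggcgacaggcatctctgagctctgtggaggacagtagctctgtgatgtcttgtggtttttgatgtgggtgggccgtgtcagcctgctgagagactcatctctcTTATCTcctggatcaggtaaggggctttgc
Il2ra promoter (chr2:11642542-11642791, plus strand): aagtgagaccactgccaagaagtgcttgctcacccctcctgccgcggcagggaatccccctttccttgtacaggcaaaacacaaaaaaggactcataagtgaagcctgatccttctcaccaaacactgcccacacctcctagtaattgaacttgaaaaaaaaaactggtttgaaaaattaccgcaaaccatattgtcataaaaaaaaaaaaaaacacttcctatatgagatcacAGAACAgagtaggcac
The listed peaks of these 3 genes lay downstream of the stretches shown.

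Il7r encodes the IL-7 receptor chain, which is shared with the TSLP receptor. Its only peak, in the control library, was chr15:9528571-9529018, 448 bp wide and inside intron 1. The peak lay 748 bp from the nearest transcript start and 1158 bp from the 5′ end of the gene, and 42.6% of its bases were repeat-masked, with a summit sequence found once in the genome. The fold was 4.89 and the −log10 q 11.4, at percentile 73.8, with 33 fragments at the summit (95% interval 22.7 to 46.3) over a background of 5.95. It had the most summit fragments of the 12 peaks in that list. The OVA library had no listed peak at Il7r, and the nearest lay 11826 bp upstream of the gene start. Of 794 start peaks in the control library within 0.5 of this −log10 q, 21.4% had no overlapping peak in the other list (exact Clopper-Pearson 95% interval 18.6 to 24.4%).

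Il2ra encodes CD25, the high-affinity chain for IL-2. In the control library a peak of 319 bp, chr2:11642923-11643241, spanned exon 1 and intron 1 from 116 bp downstream of the start. Its fold was 3.68 and its −log10 q 4.53, at percentile 9.82, with 18 fragments (10.7 to 28.4) over a background of 4.16. No peak of the other list overlapped it, as held for 78.8% of 509 start peaks of like −log10 q. A second Il2ra peak, in intron 3, was listed for both libraries. It was 306 bp wide in the control library (chr2:11678420-11678725) and 339 bp in the OVA library (chr2:11678414-11678752), at percentiles 87.8 and 92.9, with folds of 8.85 and 8.96, 24 and 22 fragments and summits 7 bp apart. This peak counts as a start peak through the start of a retained-intron transcript, 983 and 956 bp away. All of its bases were repeat-masked, and the 75 bases at its summits occurred 2255 and 2263 times in the genome, so its reads cannot be placed with certainty at Il2ra.

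Il2rb encodes the IL-2 and IL-15 receptor chain that signals with the common gamma chain. The control library held 2 peaks at Il2rb, chr15:78494613-78495014 at exon 1 and intron 1 and chr15:78493991-78494477 in intron 1. They were 402 and 487 bp wide, at percentiles 38.2 and 37.4, with folds of 4.73 and 4.69 and 19 fragments each (11.4 to 29.7). Joined, they covered 1024 bp, at percentile 88.8 by width among the domains of that list. The nearest peak of the OVA library lay 66468 bp downstream of the gene start. Among start peaks of like −log10 q, 61.4% and 65.0% had no overlapping peak in the other list.

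Il9r encodes the receptor for IL-9, a growth signal for ILC2s. In the control library 2 peaks in intron 1, chr11:32199731-32199921 and chr11:32198985-32199397, were 191 and 413 bp wide, at percentiles 9.31 and 55.2, with 19 and 25 fragments. Joined, they covered 937 bp. Of these, only the downstream peak was listed in the OVA library, chr11:32199049-32199473, 425 bp wide, at percentile 8.36 with 13 fragments (6.92 to 22.2). The downstream peaks of both lists had summits 56 bp apart, so Il9r had a peak of similar position in both lists while its percentile differed by -46.8 points (OVA minus control). Of the 9064 protein-coding genes with a start peak in both lists, 19.1% had a difference as low or lower. The upstream peak had no counterpart, as held for 79.0% of start peaks of like −log10 q.

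Il4ra encodes the chain shared by the IL-4 and IL-13 receptors. Its control peak, chr7:125552314-125552835, was 522 bp wide, at percentile 87.1 with a fold of 6.74 and 32 fragments (21.9 to 45.2). The OVA library held 2 peaks, chr7:125552337-125552529 and chr7:125552607-125552787 over the same stretch, of 193 and 181 bp, at percentiles 64.5 and 49.5 with 19 and 17 fragments. Joined, they covered 451 bp. Both lay wholly within the control peak.

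Il10ra encodes the ligand-binding chain of the receptor for IL-10, a cytokine that restrains inflammation. Its peak in the control library, chr9:45268421-45269174, covered the gene start and was 754 bp wide, at percentile 72.6 with 31 fragments (21.1 to 44.0). Within it lay 2 peaks of the OVA library, chr9:45268848-45269155 and chr9:45268435-45268729, of 308 and 295 bp, at percentiles 7.65 and 25.0 with 14 and 16 fragments. Joined, they covered 721 bp. The joined width was thus similar in both lists while the percentile differed by -47.6 points. A difference as low or lower was found for 18.3% of the 9064 protein-coding genes with a start peak in both lists.

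Crlf2 encodes the TSLP-binding chain of the TSLP receptor. Its peak in the control library, chr5:109558756-109559035, covered the gene start and was 280 bp wide, with a fold of 8.39, a −log10 q of 18.3 and 31 fragments (21.1 to 44.0) over a background of 2.81. It stood at percentile 92.7, the highest of the 12 peaks. The OVA peak, chr5:109558811-109558983, was 173 bp wide, with a fold of 4.55, a −log10 q of 4.23 and 11 fragments (5.49 to 19.7) over a background of 1.64. It stood at percentile 8.94. The summits lay 22 bp apart. The difference in percentile was -83.8 points, and 0.596% of the 9064 protein-coding genes with a start peak in both lists had a difference as low or lower. The 2 fragment counts are not scaled to each other. In a ranking by fold Crlf2 stood at percentiles 90.5 and 29.8.

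Il17rb encodes the IL-25-binding chain of the IL-25 receptor. Its control peak, chr14:30008665-30009792, was the widest of the 12, at 1128 bp, and covered the start of Il17rb and that of the neighbouring divergent gene Chdh, which encodes choline dehydrogenase. It stood at percentile 72.2 with a fold of 5.10 and 30 fragments (20.2 to 42.8), and its summit lay 60 bp downstream of the Il17rb start. The OVA peak, chr14:30009028-30009305, was 278 bp wide, at percentile 69.8 with a fold of 5.56 and 22 fragments (13.8 to 33.3). It lay wholly upstream of Il17rb, with its near edge 132 bp before the gene start and its summit at -275 bp, toward Chdh. The Il17rb side was therefore without a listed peak in that library, although the percentile by −log10 q differed by -2.39 points, and signal from the starts of Il17rb and Chdh cannot be told apart. By fold Il17rb stood higher in the OVA library, at percentile 59.1 against 48.5, and so it did among protein-coding start peaks alone, at 68.2 against 43.4. The ratio of widths was 0.246, and 6.33% of the 9064 protein-coding genes with a start peak in both lists had a ratio as low or lower. In the pair of joined widths the genes most like Il17rb, of 9064 compared by distance on the log2 scale, were Chdh, which shares the domain, the histone genes Hist1h2bb and Hist1h3c, the transcription factor gene Tef, and Strbp.

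Il17ra encodes the chain that pairs with IL-17RB for IL-25 and with IL-17RC for IL-17A. Its peak covered the gene start in both lists. In the control library, chr6:120463199-120464134 was 936 bp wide, at percentile 71.4 with a fold of 5.96 and 24 fragments (15.4 to 35.7). In the OVA library, chr6:120463183-120463778 was 596 bp wide, at percentile 51.6 with a fold of 5.49 and 17 fragments (9.9 to 27.2). The upstream edges lay 48 and 64 bp upstream of the start, and the edges in the gene body lay 887 and 531 bp downstream. The difference in width was thus on the downstream side.

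**Figure D2:**
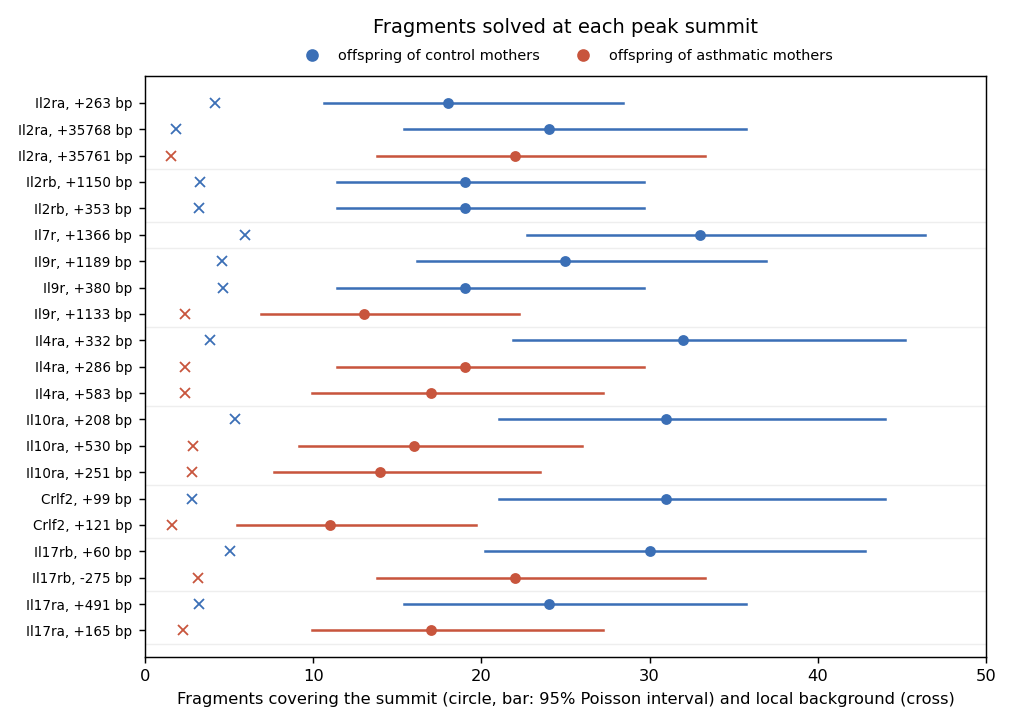
Fragments solved at the summit of each of the 12 and 9 peaks (circles, with exact Poisson 95% intervals as bars) and the local background (crosses), on an axis of fragment number, with each row named by gene and distance of the summit from the gene start. The most fragments in the control library were 33 at Il7r, and the fewest in the OVA library were 11 at Crlf2. Libraries were not scaled to each other.

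Among the 7 genes with a start peak in both lists, the joined domain was narrower in the OVA library for 6, and among all 9064 such protein-coding genes it was narrower for 92.2%. The median ratio of widths was 0.637 over the receptor genes and 0.664 over all. Protein-coding start peaks made up 12764 of the 42126 peaks in the control library and 10062 of the 51610 in the OVA library. The percentile by −log10 q was thus taken within lists of unlike make-up. It was lower in the OVA library for 6 of the 7 receptor genes, and for 86.7% of all. By fold it was lower for 5 of 7, and for 74.2% of all, Il17rb being higher along with Il2ra. Ranked among protein-coding start peaks alone it was lower for 4 of 7, and for 61.4% of all, with Il17rb, Il17ra and Il2ra higher. The median difference by −log10 q was -22.6 percentile points over the receptor genes and -21.1 over all, whose middle 50% ran from -39.7 to -6.78. The exception in width and in rank by −log10 q was Il2ra, whose best start peak in both lists was the repeat-masked one and whose ratio of 1.06 set the 319 bp start peak against the 339 bp intron peak. The counts and medians of the receptor genes were thus close to those of all protein-coding genes, and Crlf2 had the lowest difference of the 7.

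**Figure D3:**
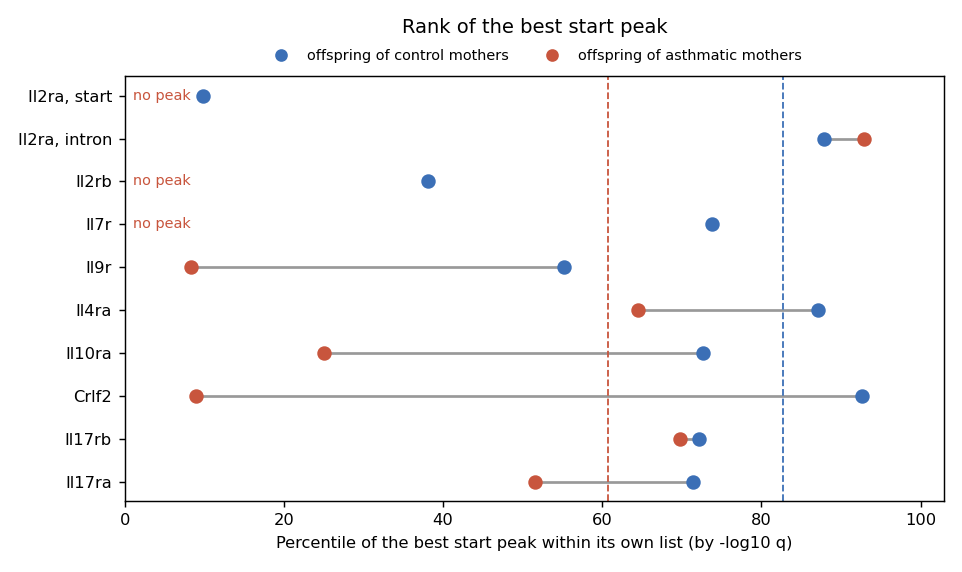
Percentile of the best start peak of each receptor gene within its own list, by −log10 q, with the Il2ra start and intron peaks on separate lines. Points are the 1 library of each group, dashed lines are the medians over all protein-coding genes with a start peak (82.7 in the control library and 60.7 in the OVA library), and the longest line is that of Crlf2, from 92.7 to 8.94.

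The median of the receptor genes lay below that of all marked genes in rank but not in width. In the control library the median percentile over the 9 genes was 72.6, against 82.7 over all protein-coding genes with a start peak, and in the OVA library it was 51.6 over 7 genes, against 60.7. By fold the medians were 48.5 over the 9 genes in the control library and 58.0 over the 7 in the OVA library. Over the same 7 genes the control median by fold was 64.4, that of Il17ra, so on like genes the order by fold was that by −log10 q. Among protein-coding start peaks alone the medians were 44.1, over the 9 genes and also over the 7, in the control library and 48.0 in the OVA library. There the order was the other way. The median joined width was 754 bp over the 9 genes, against 663 bp over all, and 425 bp over the 7, against 409 bp. Without joining, the medians over the receptor genes were 487 and 308 bp. With the Il2ra intron peak left out, the median percentile in the OVA library was 38.3 over 6 genes.

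**Figure D4:**
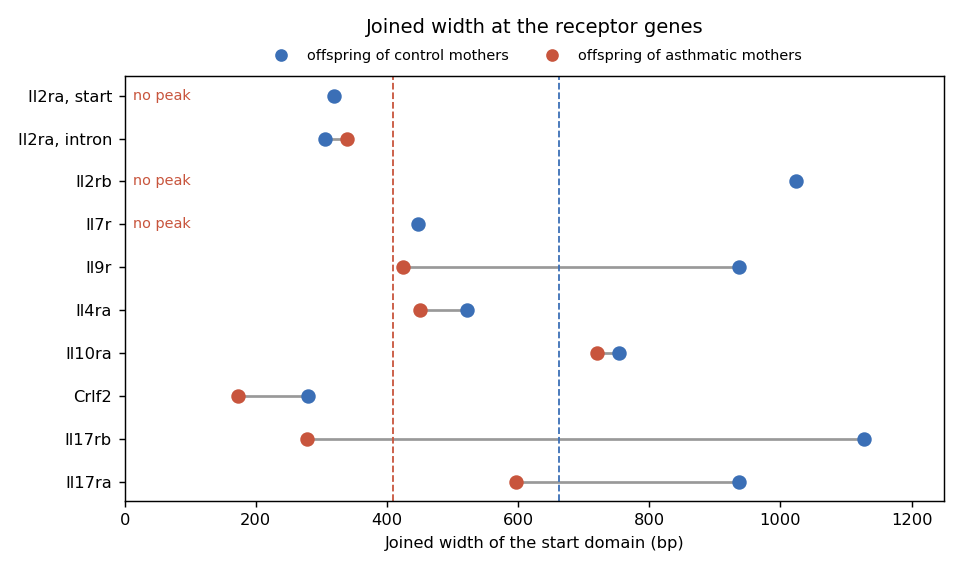
Joined width in bp of the start domain of each receptor gene, with peaks at most 1000 bp apart joined and the Il2ra start and intron peaks on separate lines. Points are the 1 library of each group and dashed lines are the medians over all protein-coding genes with a start peak (663 bp in the control library and 409 bp in the OVA library). Il17rb has the widest domain of the 9 receptor genes in the control library, at 1128 bp, and one of 278 bp in the other list.

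Of the summits, 12 of 12 lay downstream of the gene start in the control library and in the OVA library 8 of 9, the exception being Il17rb. Over all pairs of a protein-coding gene and a start peak, 80.5% and 83.2% of summits lay downstream. Of the 12 peaks 7 overlapped a peak of the other list, and of the 9 peaks 9 did, whereas the shares over all protein-coding start peaks were 70.0% and 95.6%. The 4 genes with a CpG ratio under 0.4, a limit set with these values at hand, had no peak that covered the gene start in either list, whereas 18.6% and 6.45% of all protein-coding genes had one. Of them, only Il9r had a peak with a single-copy summit in the OVA library. Of the 5 genes above 0.4, which include Il10ra although its ratio is below the median of all protein-coding genes, 4 had a peak that covered the gene start in the control library (Il17rb, Crlf2, Il17ra and Il10ra) and 2 in the OVA library (Il17ra and Il10ra). Among all protein-coding genes with a start peak in the list, the shares with a peak that covered the gene start were 13.1% and 4.35% under 0.4, and 39.3% and 16.6% at 0.4 or above. Distance did not separate them throughout, since the nearest Il4ra peaks began 194 and 217 bp from the gene start and the control peak of Il2ra 116 bp.

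Over all protein-coding genes with a CpG ratio under 0.4, 13.9% had a start peak in the control library and 10.7% in the OVA library, and at 0.4 or above 75.9% and 62.9% did. Of genes with a start peak in the control library, the share with none in the OVA library was 28.7% of 1218 genes under 0.4 (exact Clopper-Pearson 95% interval 26.2 to 31.4%) and 17.9% of 9979 genes at 0.4 or above (17.1 to 18.6%). The receptor genes Il2rb and Il7r are among the former. With the smallest background solved the fewest fragments at a listed summit were 9 in the control library and 8 in the OVA library. H3K4me3 at Il2rb, Il7r and the Il2ra start in the OVA library was not listed, which does not show that it was absent.

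**Figure D5:**
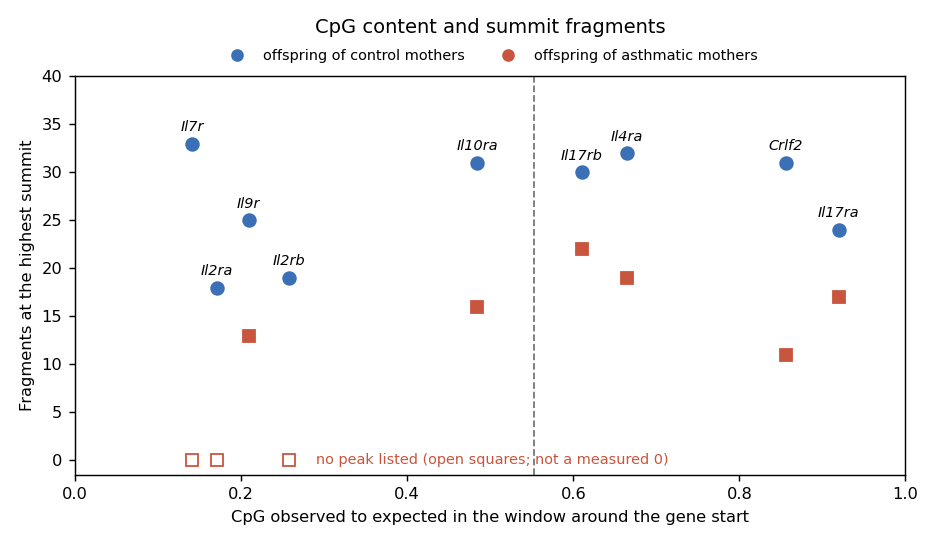
Ratio of observed to expected CpG in the 500 bp to either side of the gene start (horizontal axis) and fragments at the highest summit near the start (vertical axis) for the 9 receptor genes, with the Il2ra intron peak left out. Circles and squares are the 1 library of each group, open squares mark genes with no listed peak and are not a measured 0, and the dashed line is the median ratio of all protein-coding genes, 0.552. The open squares, Il7r, Il2ra and Il2rb, lie at ratios of 0.141 to 0.258.

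A list of 7 other chains, which are partners of these receptors or belong to the related IL-33 and IL-15 receptors, was set beside them. Of these, 5 had a start peak in the control library and 4 in the OVA library, beside 51.0% and 42.0% of protein-coding genes. Il2rg, the common gamma chain used by the receptors of IL-2, IL-4, IL-7 and IL-9, had one only in the control library, with a joined width of 925 bp at percentile 64.2. Il13ra1 and Il17rc had none in either. Il1rl1, which encodes the ST2 used for the sort, had widths of 392 and 625 bp at percentiles 64.1 and 34.1, in the control and the OVA library. Il1rap, its co-receptor, had widths of 736 and 182 bp at percentiles 87.8 and 11.6. Il10rb, the partner of Il10ra, had widths of 750 and 578 bp at percentiles 88.4 and 78.2. Il15ra, the IL-15-binding chain, which was added after its values were seen, had widths of 980 and 644 bp and was the one chain of this list with a higher percentile in the OVA library, 96.0 against 89.4.

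Of 10 signalling genes downstream of these receptors, 10 had a start peak in the control library and 9 in the OVA library, beside 51.0% and 42.0% of protein-coding genes. Jak3, the kinase bound to the common gamma chain, had one only in the control library, 833 bp wide at percentile 34.6. Jak1, which is bound to several of the receptors, had widths of 888 and 708 bp at percentiles 89.3 and 76.5. The transcription factor genes Stat5a and Stat5b, activated by IL-2 and IL-7, had widths of 797 and 619 bp and of 968 and 751 bp, at percentiles 81.5 and 77.7 and 96.3 and 91.9. These ranks kept Stat5b near the top of both lists. Stat6, activated by IL-4 and IL-13, had widths of 1133 and 633 bp at percentiles 96.4 and 59.8. Traf3ip2, the adaptor of the IL-17 receptor family, had widths of 514 and 352 bp at percentiles 86.4 and 59.3. The differences in percentile were larger for the kinase genes Jak2 and Tyk2, added after their values were seen, which stood at 81.0 and 17.2 and at 91.2 and 29.7. Of the remaining genes, Stat3 stood at 96.0 and 68.7, and Traf6 had a wider domain in the OVA library, 675 against 642 bp.

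Of 11 ligand genes, 3 had a start peak in the control library and 2 in the OVA library, beside the same 51.0% and 42.0%. Il7 and Il15 had one in both, and Il4 only in the control library, 193 bp wide at percentile 24.5. The other 8, among them the alarmin genes Il25, Il33 and Tslp, had none in either list.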

How the data were processed

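The data were 1 library of H3K4me3 CATCH-seq on sorted lung ILC2s per group. The authors trimmed reads with Trim Galore and Cutadapt, aligned them to GRCm38 (mm10) with Bowtie 2, and used Sambamba to remove duplicates. A reporting form states that no peaks were called on the ChIP-seq data and that its quality was not checked, in conflict with the deposited lists. The peak caller, its threshold and the use of input are not given in the sources used here, and no filter on mapping quality was named. The deposited lists give a score per peak, a fold (ratio) over local background, and a p-value and q-value as −log10 p and −log10 q, which the authors deposited for each library separately. No listed −log10 q was below 2.02 (control library) or 2.01 (OVA library). The score was not used.

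Positions are 1-based on GRCm38. Transcript starts came from GENCODE vM21. Start peaks lay within 1000 bp of a transcript start, domains joined peaks at most 1000 bp apart, and overlap meant at least 1 bp. Summit fragments n and background b were solved from fold = (n + 1)/(b + 1) and a Poisson p. Overlaps and solved summits were tested on simulated data. The tools were matplotlib 3.10.9, scipy 1.17.1, pandas 2.3.3 and numpy 2.4.6 under Python 3.11.15.

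All 9 members were named. Members, gene lists, motifs and settings were chosen with earlier results of these data known. Genes of the other lists were given values by a fixed selection and where a start peak was in 1 list only. Il15ra, Jak2, Tyk2, Stat3, Traf6 and Areg were given values outside this rule, with a start peak in both lists. The 5 genes most like the member with the widest domain were named. Alternatives were other distances, joins, ranks, thresholds and overlaps.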

Additional observations from a re-analysis of the deposited data

How the results depend on the processing

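Of 40 alternatives to the 8 main values, 32 stayed near the main value and 8 moved, where near means within 1.5 times for a count and within the order-statistic 95% interval over the receptor genes for a median. With only the 10000 peaks of highest −log10 p in each list, 3 of the 9 receptor genes had a start peak in the control library and 1 in the OVA library, beside 32.3% and 9.34% of all protein-coding genes, and 1 receptor peak of each list overlapped the other list. When overlap had to cover 50% of both peaks, 4 peaks of each list overlapped. The median percentile over 9 genes in the control library was 48.5 by fold and 44.1 among protein-coding start peaks. Over 7 genes in the OVA library it was 58.0 and 48.0, and by −log10 q the medians were 72.6 and 51.6. Over the 7 genes with a start peak in both lists the control medians were 64.4 by fold and 44.1 among start peaks. On like genes the order thus turned round among start peaks but not by fold. The cause of these shifts was not tested, beyond the smaller number of peaks kept and the stricter overlap. That interval is wide. For the 7 genes of the OVA library it is the full range of their values, percentiles 8.36 to 92.9 and widths 173 to 721 bp. A median over these genes could hardly leave it, so the label near says little there. The genes with a start peak in both lists are the same 7, so that alternative could not change the OVA medians. Without joining, the median joined width was 487 against 754 bp in the control library and 308 against 425 bp in the OVA library, and stayed within the interval. Start peaks within 500 bp were found for 8 and 5 receptor genes (50.1% and 40.7% of all), and with a −log10 q of at least 5 for 9 and 5 (49.6% and 37.4%). The alternatives chosen after seeing the data were genes with a start peak in both lists, and peaks with single-copy summits, which left 9 and 6 genes with a start peak and was not run over all genes. No paired analysis was possible because each group had 1 library. Whether depth accounts for unlisted peaks was not tested, since the study states 1 total for its ChIP-seq reads and not the share of each library.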
